A study of Mus musculus with 8 samples.

Results

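The loci described here are those of 4 genes that are recurrently altered in cancer, Cdkn2a, Cdkn2b, Smad4 and Mdm2, in Hi-ChIP loop lists of mouse pancreatic cancer cells. Hi-ChIP enriches chromatin contacts for fragments bound by a chosen protein and reads both ends of each contact, so that a loop is a pair of anchors, 2 stretches of the genome, that the loop caller listed as joined. A loop was taken when 1 of its anchors lay within 2 kb of an annotated start of one of the genes, called a promoter loop below, or when both anchors lay inside the neighborhood of the gene, which is the gene with 250 kb on each side. These rules took 178 of the 249200 distinct loops, or 0.0714%. They comprised 36 promoter loops and 167 neighborhood loops, of which 25 were both. The rules did not use the values of the loops.

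The series held 8 samples in 4 groups of 2 replicates. FOXA1 and HNF4G were each immunoprecipitated in a line from a primary tumor (tumor) and in a line from a liver metastasis (liver mets) of the KPC mouse model. In KPC mice Cre activates engineered alleles in the pancreas, none of them at the 4 genes described here, while the labels give the genotype as WT and the treatment as untreated for all groups. Each group had 1 loop list for both replicates, with 125623 loops for FOXA1 in liver mets and 104136 in tumor, and 78098 loops for HNF4G in liver mets and 76323 in tumor. Where 4 values follow each other below, they are in this order. With 1 list per group there is no spread between replicates and no test between groups. All intervals below are 95% intervals, they cover counting error only, and they are too narrow because loops share anchors. Read depth, copy number and RNA were not given in the lists: more copies of a locus and more contacts per copy cannot be told apart here.

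Cdkn2a makes 2 unrelated proteins from separate starts. Arf, made from the upstream start, binds and inhibits Mdm2, a ubiquitin ligase whose gene is amplified in some cancers. The downstream start makes Ink4a and the neighboring gene Cdkn2b makes Ink4b, both inhibitors of the cyclin D kinases that inactivate RB. Smad4 is the common partner of the SMAD proteins that carry TGF-beta signals to the nucleus. In human pancreatic cancer CDKN2A and SMAD4 are among the classical tumor suppressors, and CDKN2A is often deleted together with CDKN2B and MTAP. FOXA1 is a forkhead pioneer factor and HNF4G a nuclear receptor of endodermal tissues.

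Of the 4 genes, 3 had exactly 1 promoter anchor each, given here in mm10 coordinates. The anchor of Cdkn2a was chr4:89294436-89296630 and held the Arf start at 89294653. The Ink4a start at 89282192 lay 12244 bp from that anchor, the nearest one, and the start of Cdkn2b at 89311039 lay 14409 bp from it on the other side. Smad4 and Mdm2 had theirs over their upstream starts, that of Mdm2 at chr10:117709024-117712057. Cdkn2b therefore had no promoter loop in any list. This was common: 50.3% of 21755 protein-coding genes had no anchor within 2 kb of a start, and the 30542 anchors were 1 set for all 4 lists.

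The sequences of the 3 starts at the Ink4a, Arf and Cdkn2b locus are shown because only the Arf start had an anchor, and that of Mdm2 because it held a forkhead core. They are the RefSeq promoters of GRCm38.p6, 250 bases before to 50 after the start, on the strand of the gene, with a core in capitals where there was one.
Cdkn2a, Arf start, chr4:89294570-89294869, minus strand: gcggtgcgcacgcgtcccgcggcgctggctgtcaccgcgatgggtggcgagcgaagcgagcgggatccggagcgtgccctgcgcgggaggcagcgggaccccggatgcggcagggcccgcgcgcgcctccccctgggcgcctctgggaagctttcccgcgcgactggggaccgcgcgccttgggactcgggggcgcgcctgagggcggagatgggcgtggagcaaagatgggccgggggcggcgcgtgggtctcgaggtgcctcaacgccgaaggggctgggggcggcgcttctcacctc
Cdkn2a, Ink4a start, chr4:89282143-89282442, minus strand: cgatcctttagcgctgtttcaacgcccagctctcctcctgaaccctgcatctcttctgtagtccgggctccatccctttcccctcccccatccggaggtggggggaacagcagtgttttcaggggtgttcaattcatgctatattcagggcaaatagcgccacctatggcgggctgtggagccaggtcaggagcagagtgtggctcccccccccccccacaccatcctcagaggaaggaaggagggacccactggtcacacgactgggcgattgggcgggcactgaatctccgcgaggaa
Cdkn2b, chr4:89310983-89311282, minus strand: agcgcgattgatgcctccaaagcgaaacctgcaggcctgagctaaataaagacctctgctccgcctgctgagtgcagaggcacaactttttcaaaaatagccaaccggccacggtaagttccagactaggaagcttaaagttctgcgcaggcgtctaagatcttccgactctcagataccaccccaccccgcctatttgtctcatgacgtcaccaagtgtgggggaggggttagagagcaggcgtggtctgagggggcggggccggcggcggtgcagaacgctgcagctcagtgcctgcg
Mdm2, chr10:117710709-117711008, minus strand: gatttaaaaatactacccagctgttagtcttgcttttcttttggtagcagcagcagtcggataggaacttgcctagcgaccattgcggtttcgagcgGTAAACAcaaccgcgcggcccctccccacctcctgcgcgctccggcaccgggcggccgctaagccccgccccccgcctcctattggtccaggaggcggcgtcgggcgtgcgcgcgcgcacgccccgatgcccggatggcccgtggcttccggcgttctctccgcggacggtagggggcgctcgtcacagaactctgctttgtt

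The Arf promoter was 77% G and C, more than 97.6% of the 32851 RefSeq promoters, and held 45 CpG dinucleotides against a median of 7. The Ink4a promoter had 60.3% G and C with 12 CpG, and that of Cdkn2b had 57.7% with 18 CpG. For Mdm2 the values were 64.7% and 35. The start with an anchor thus had the highest CpG number of the 3 at the Cdkn2a and Cdkn2b locus. No promoter was found for Smad4.

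Both strands were searched for the forkhead cores TGTTTAC and TATTTAC and for the HNF4 cores CAAAGTCCA and CAAAGTTCA. TGTTTAC occurred in 3.65% of all promoters, TATTTAC in 3.04%, CAAAGTCCA in 0.475% and CAAAGTTCA in 0.390%. Among the 4 promoters found for the other 3 genes, only that of Mdm2 held any of them, a TGTTTAC read on the strand opposite to the gene. A match is a string of letters and does not show binding.

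Forkhead cores also lay in the anchors. The Cdkn2a anchor held 2, both upstream of the Arf start, the Smad4 anchor held 1, and the Mdm2 anchor held 4. The Cdkn2a and Mdm2 sites are shown with 20 bases on each side, on the plus strand of GRCm38 with the core in capitals.
Cdkn2a anchor, chr4:89296263-89296309: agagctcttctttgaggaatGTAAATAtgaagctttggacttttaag
Cdkn2a anchor, chr4:89296360-89296406: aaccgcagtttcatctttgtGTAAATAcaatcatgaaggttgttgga
Mdm2 anchor, chr10:117709576-117709622: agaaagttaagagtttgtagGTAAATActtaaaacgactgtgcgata
Mdm2 anchor, chr10:117709650-117709696: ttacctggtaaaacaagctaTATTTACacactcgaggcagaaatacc
Mdm2 anchor, chr10:117710885-117710931: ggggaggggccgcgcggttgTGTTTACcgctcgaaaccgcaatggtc
Mdm2 anchor, chr10:117711766-117711812: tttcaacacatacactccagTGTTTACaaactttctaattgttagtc

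In windows of 2195 bp, the length of the Cdkn2a anchor, centered on each of the 30542 anchors, 51.6% held a forkhead core. At the 3034 bp of the Mdm2 anchor, 61.4% held at least 1 and 2.66% at least 4. None of the 3 promoter anchors held an HNF4 core. The number of cores did not follow the number of loops, since the Mdm2 anchor with 4 cores had no more loops in any list than the Cdkn2a anchor with 2.

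The number of promoter loops differed widely among the genes. With FOXA1, Cdkn2a had 13 in liver mets and 9 in tumor, and with HNF4G 6 and 3. Smad4 had 3, 1, 3 and 0, and Mdm2 had 4, 0, 4 and 3. Cdkn2a thus held most of the promoter loops in the FOXA1 lists, and the other 2 anchors were listed with few or none. A count of 0 has an exact Poisson upper limit of 3.69 loops, so the zeros of Mdm2 in FOXA1 tumor and of Smad4 in HNF4G tumor could not be separated from the small counts in the other lists.

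**Figure D1:**
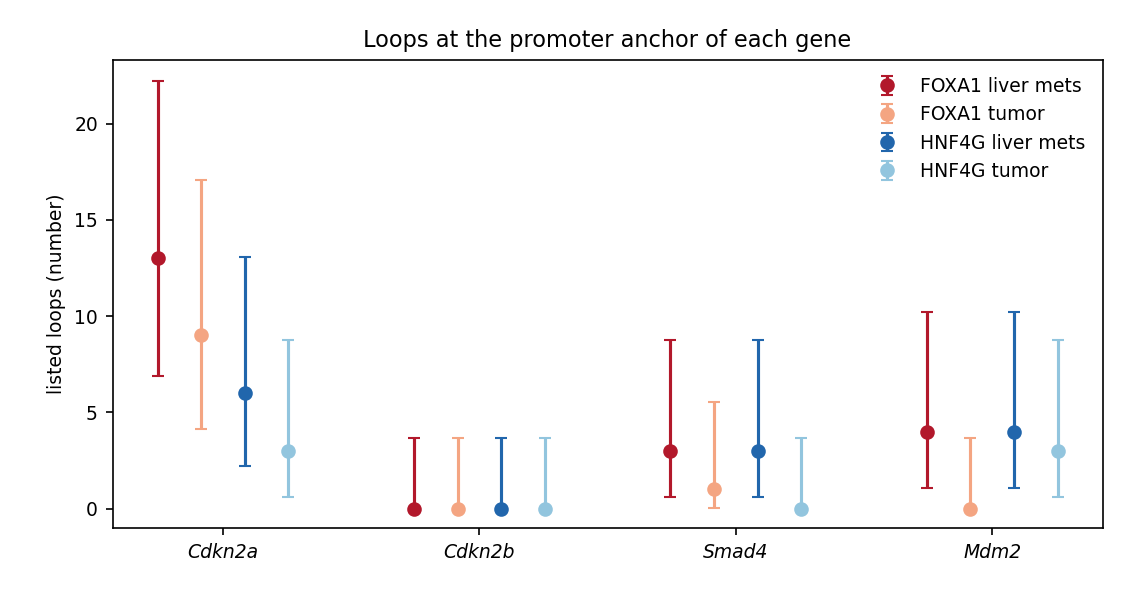
Number of listed promoter loops (y axis) of each gene (x axis) in the 4 lists, with exact Poisson 95% intervals as bars. Cdkn2a has the highest number, 13, in FOXA1 liver mets and Cdkn2b is at 0 in all lists because no anchor lay at its start.

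Against the 10802 protein-coding genes with a promoter anchor, Cdkn2a exceeded 71% of genes with FOXA1 in liver mets, 61.6% with FOXA1 in tumor and 55.6% with HNF4G in liver mets, and fell below the median of 5 loops in HNF4G tumor, where 60.1% of genes had more. Smad4 and Mdm2 were below the median in all 4 lists. At most 29.6% of genes had fewer loops than Smad4, in HNF4G liver mets, and at most 39.4% had fewer than Mdm2, in the same list.

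Between the lines, the FOXA1 promoter loops of the 4 genes summed to 20 for liver mets and 10 for tumor, a ratio of 2 with a Clopper-Pearson interval of 0.894 to 4.78. All promoter loops together had a ratio of 1.19. For HNF4G the sums were 13 and 6, a ratio of 2.17 (0.768 to 6.95), against 0.987 for all promoter loops. Both intervals held 1. Per listed loop the FOXA1 ratio was 1.66, and it was 1, from 3 loops in each list, when only values of 2 or more were counted. By gene, all 3 genes with an anchor had more FOXA1 loops in liver mets, where 57.5% of all genes had more and 30.0% had fewer. The same held with HNF4G, against backgrounds of 41.5% and 44.1%. With 3 genes these counts cannot be set apart from the background, and no single gene had a ratio whose interval excluded 1.

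Between the factors, the sum in tumor was 10 for FOXA1 and 6 for HNF4G, a ratio of 1.67 (0.549 to 5.58). In liver mets the sums were 20 and 13, a ratio of 1.54 (0.728 to 3.37), and all promoter loops had ratios of 1.29 in tumor and 1.56 in liver mets. Neither interval excluded 1. In tumor 2 of the 3 genes, Cdkn2a and Smad4, had more FOXA1 than HNF4G loops and Mdm2 had fewer, where 63.0% of all genes had more. In liver mets Cdkn2a alone did, where 74.6% of all genes had more, while Smad4 and Mdm2 were equal with 3 and 4 loops in both lists.

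Most promoter loops were in 1 list only, as they were over the whole genome. Of the 36 distinct loops, 26 (72.2%, Wilson interval 56 to 84.2%) were in 1 list, against 65.7% of all promoter loops, 8 in 2 lists, 1 in 3 lists and 1 in all 4. The share in all 4 lists was 2.78% (0.492 to 14.2%), against 5.54% of the 181129 promoter loops of the genome. Among loops spanning 100 to 200 kb it was 1 of 14, or 7.14% (1.27 to 31.5%), against 3.7% of all promoter loops of that span. Between 20 and 100 kb it was 0 of 5, which allows a share of up to 43.4%, against 11.6%. By gene, 10 of the 19 Cdkn2a loops (52.6%, 31.7 to 72.7%) and 5 of the 6 Smad4 loops (83.3%, 43.6 to 97%) were in 1 list only, and both intervals held the 65.7% of all promoter loops. All 11 Mdm2 loops were in 1 list only, a share with a lower bound of 74.1%, not matched on span.

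The loop listed in all 4 lists joined the Arf start to an anchor at chr4:89425071-89430190, in an intron of the long noncoding RNA gene Gm12610, 132.1 kb away on the side of Cdkn2b. Its value, read as the −log10 of an adjusted p, was 1.87 in liver mets and 3.82 in tumor with FOXA1, and 1.57 and 2.57 with HNF4G. On this reading a value near 0 gives little support for a loop. The lists held many such loops, and the counts given here include loops at all values unless a minimum is stated. Long runs of loops shared the values 1.87 and 0.0889 in liver mets and 1.91 and 0.123 in tumor with FOXA1, and 1.99 and 0.146 in liver mets and 1.99 and 0.171 in tumor with HNF4G, so equal values do not rank loops and values from different lists are not on 1 scale. A cutoff on the value, such as 2, therefore need not mean the same in each list. Within the tumor lists the loop found in all 4 lists was the highest of the Cdkn2a loops with HNF4G, and second with FOXA1. The partner anchor held no forkhead or HNF4 core over its 5120 bp.

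The highest value at Cdkn2a in FOXA1 tumor, 3.86, belonged to the loop to chr4:89161808-89164484, at the start of the noncoding gene Gm12607 beside Mtap, which salvages methionine from methylthioadenosine. This loop spanned 132.4 kb and had 1.87 in FOXA1 liver mets. In FOXA1 liver mets the highest value was 2.6, for an intergenic partner at chr4:89478285-89480069 spanning 183.6 kb, which no other list held. In HNF4G liver mets it was 3.4, for a partner at a start of the long noncoding RNA gene Wincr1 at chr4:89049398-89051655, spanning 245.0 kb, with 1.6 in FOXA1 liver mets. By the highest value alone, the leading partner therefore differed among the lists. In FOXA1 tumor, however, the loop to the Gm12610 intron, which led in HNF4G tumor, was close behind with 3.82. One further loop was in 3 lists, to the intergenic anchor chr4:89348269-89352789 at 55 kb, with values of 0.304 in liver mets and 0.41 in tumor with FOXA1 and 0.483 in liver mets with HNF4G. That anchor held 2 TGTTTAC cores. This loop was chosen for naming after its values were seen.

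The 19 partners of the Arf start lay on both sides, 10 toward Mtap and the interferon gene cluster and 9 toward Gm12610. None spanned more than 367.8 kb. The start of Mtap itself at chr4:89136135-89138741 was a partner in both liver mets lists, with values of 1.29 with FOXA1 and 1.68 with HNF4G, and in neither tumor list. The other 2 partner anchors at Mtap did not share this pattern. The anchor chr4:89144567-89146893, in an Mtap intron 7.45 kb from a start, was a partner with 1.47 in FOXA1 tumor and 1.64 in HNF4G liver mets, and chr4:89176232-89178691, at another Mtap start, was a partner in FOXA1 liver mets alone with 0.726. In all, 3 of the 19 Cdkn2a loops were in both liver mets lists and neither tumor list, where 3.45% of all promoter loops were, and 1 loop had the opposite pattern, where 2.61% did. These counts are small, and the shares of all promoter loops were not matched on span. Mtap had 20, 11, 5 and 4 promoter loops, which include its loops to the Cdkn2a anchor, and so ranked the 4 lists in the same order as Cdkn2a. The sizes of the lists have this order too, and the medians over all genes with an anchor were 7, 6, 5 and 5. The shared order is therefore not particular to this locus.

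**Figure D2:**
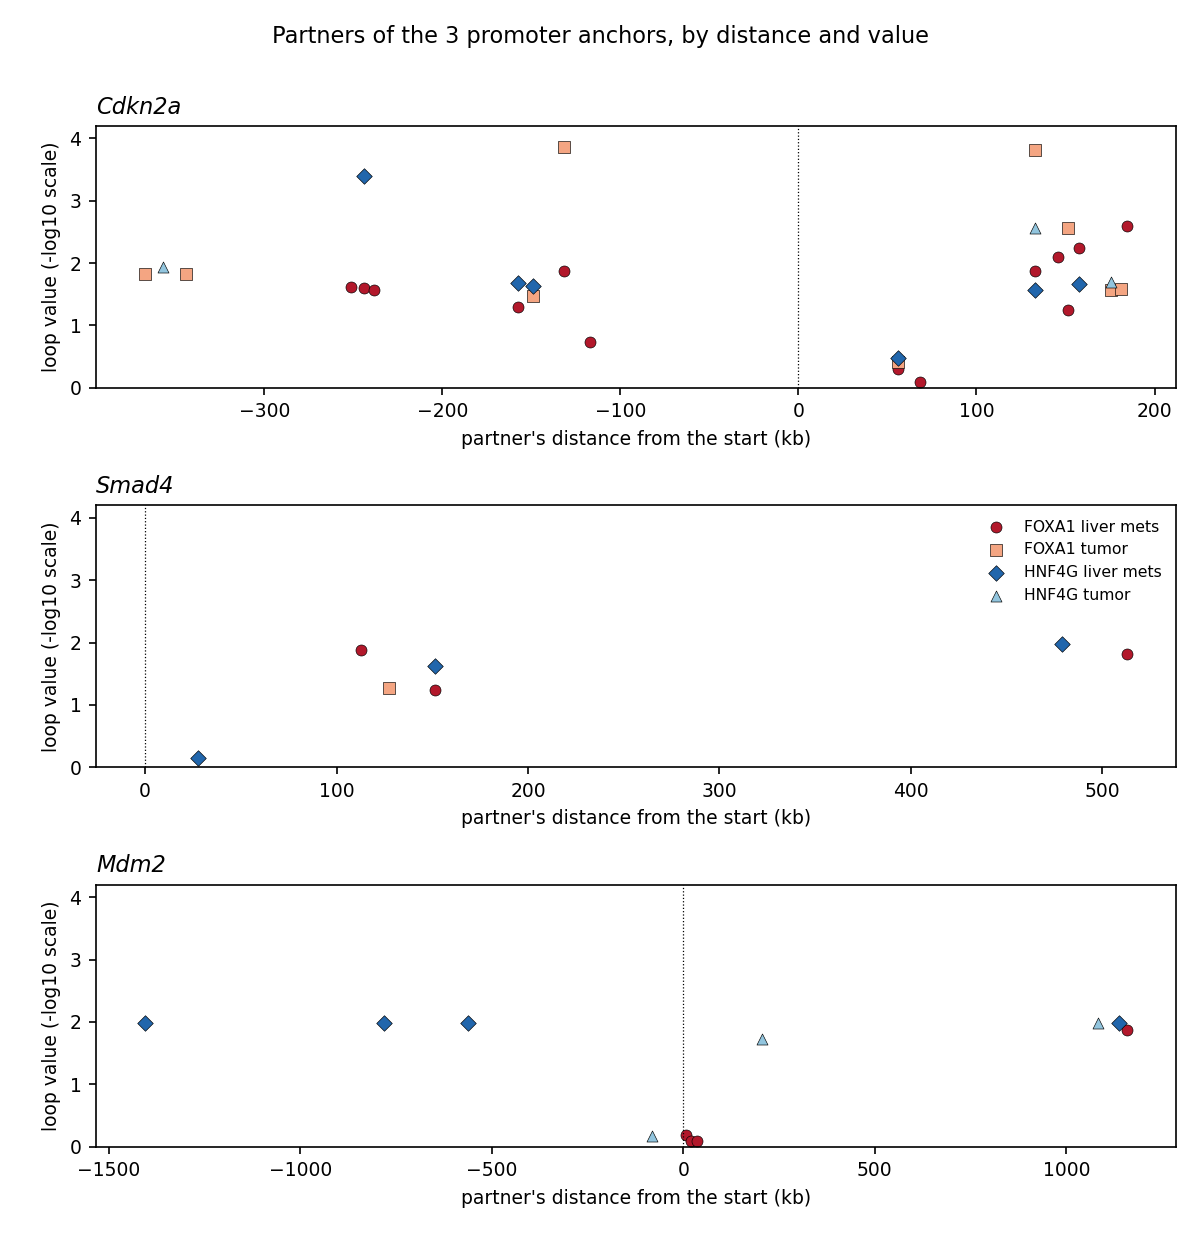
Value of each promoter loop (y axis, −log10 scale as deposited) against the distance of the partner anchor from the gene's start (x axis, kb along the chromosome, the lower coordinates to the left), with 1 point for each list that held the loop. Cdkn2a partners lie within 367.8 kb on both sides, all 6 Smad4 partners lie on 1 side, and Mdm2 partners lie either within 81.1 kb with values up to 0.184 or at 206.2 kb and beyond with values of 1.73 to 1.99.

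The anchor of Smad4 was chr18:73702175-73705187. All 6 of its partners lay upstream of its start, at higher coordinates. In FOXA1 liver mets they were the start of Me2, a mitochondrial malic enzyme, at 113.1 kb with a value of 1.88, an intergenic anchor 3.61 kb from a start of Mro at 151.3 kb with 1.24, and the start of Cxxc1, a CpG-binding protein of histone methyltransferase complexes, at 513.0 kb with 1.82. In FOXA1 tumor the only partner was intergenic at 127.3 kb with 1.27. In HNF4G liver mets they were the same anchor near Mro with 1.63, an intergenic anchor at 479.1 kb with 1.97 and the start of AC132418.3 at 27.6 kb with 0.144. The loop to the anchor near Mro was in both liver mets lists and in neither tumor list, and was the only Smad4 loop in more than 1 list. On the other side of Smad4 no anchor lay between its neighborhood and 2993.4 kb from the gene, so that no partner beyond the neighborhood could be listed over this distance.

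Mdm2 was listed with different partners in each list. In FOXA1 liver mets 3 of its 4 loops were short, 8.06, 19.1 and 34.8 kb to the side of Slc35e3, with values of 0.184, 0.0828 and 0.0889, and the fourth reached the start of Dyrk2, a protein kinase gene, at 1158.5 kb with 1.87. In HNF4G liver mets all 4 were long with a value of 1.99, to the start of Frs2, an adaptor of FGF receptors, at 561.4 kb, to the bodies of Rab3ip at 781.4 kb and Ptprb at 1405.5 kb, and to an intergenic anchor 19 kb from Dyrk2 at 1137.1 kb. In HNF4G tumor they were the start of Cpm at 81.1 kb with 0.171, an intergenic anchor at 206.2 kb with 1.73 and another at 1084.3 kb with 1.99. None of the 11 had a value of 2 or more, and FOXA1 tumor held none. Partners within 72.6 kb of a start of Dyrk2 thus occurred in 3 lists, but each time at another anchor.

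The genes most like each of these by the 4 counts of promoter loops are given as a description, with the summed absolute difference over the 4 lists. For Cdkn2a it was Csf1 with 1, then Gstm5 and Klf9 among 9 genes with 2. For Smad4, 4930523C07Rik, Ccnk and Cfap46 were among 4 genes with 0. For Mdm2, Asl, Crcp and Hdhd3 were among 5 genes with 1.

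The clearest difference between the lists was inside the neighborhood of Cdkn2a. The FOXA1 lists held 109 loops there for liver mets and 60 for tumor, and the HNF4G lists 39 and 24. Their median values were 1.06, 0.402, 0.423 and 0.39, so many of these listed loops had little support by their own value. With FOXA1 the liver mets list had 1.82 times as many (1.31 to 2.53), or 1.51 times (1.09 to 2.1) when divided by the size of each list. With HNF4G the ratio was 1.62 (0.953 to 2.82). The overlapping neighborhood of Cdkn2b had 80, 47, 33 and 18 loops, with ratios of 1.7 (1.17 to 2.49) and 1.83 (1 to 3.46). Per listed loop the Cdkn2b ratios were 1.41 (0.972 to 2.07) with FOXA1 and 1.79 (0.98 to 3.38) with HNF4G. By raw count both genes thus had at least 1.5 times more loops in liver mets with both factors. Of protein-coding genes, 7.56% of 11749 had this with FOXA1, 8.32% of 10423 with HNF4G and 1.03% of 10341 with both. These 2 genes share most of their neighborhood and count as 1 locus. The whole of chromosome 4 had ratios of 1.21 with FOXA1 and 1.08 with HNF4G.

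**Figure D3:**
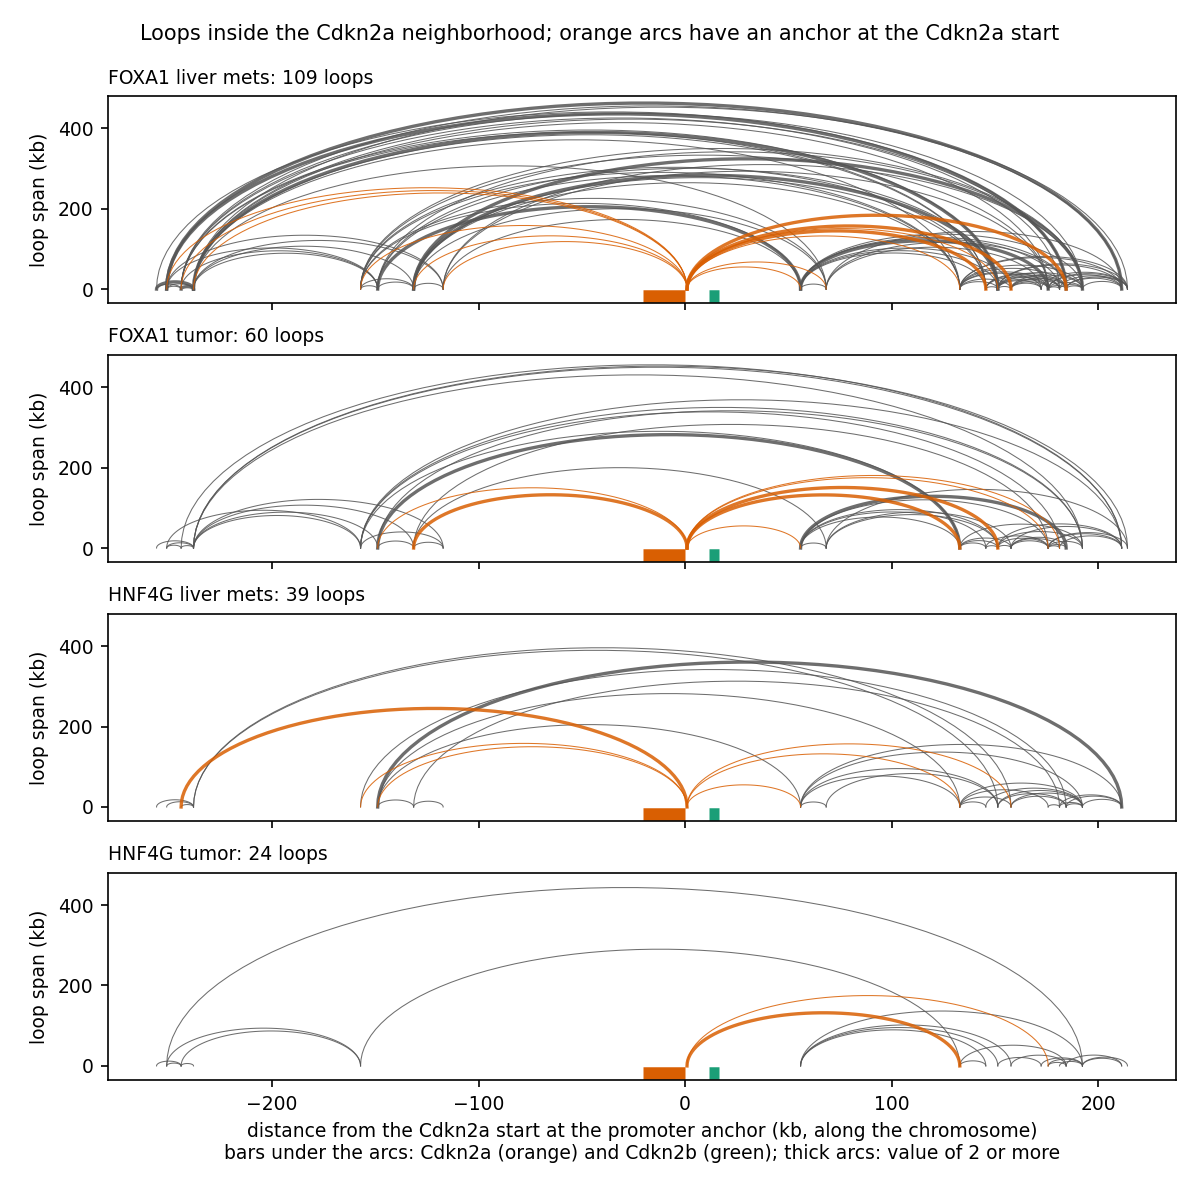
Loops inside the Cdkn2a neighborhood in the 4 lists, each an arc between its anchors, with the distance from the Arf start on the x axis (kb) and the span on the y axis (kb). Orange arcs have an anchor at the Cdkn2a start, thick arcs have a value of 2 or more, and the bars show Cdkn2a and Cdkn2b. FOXA1 liver mets has 109 arcs and HNF4G tumor 24, and arcs pass over Cdkn2b without ending there.

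The neighborhood had 22 anchors, which make 231 pairs. Of these pairs 47.2% were listed in liver mets and 26% in tumor with FOXA1, and 16.9% and 10.4% with HNF4G. All 22 anchors had a FOXA1 loop there in liver mets and 21 in tumor, and 20 and 18 had an HNF4G loop, so that loops were listed along the locus in both lines. Set against the share of all anchor pairs of the same span range that were listed, the numbers were 1.63 times the expected number in liver mets and 1.02 times in tumor with FOXA1, and 0.818 and 0.54 times with HNF4G. Among 14408 protein-coding genes with at least 20 anchor pairs, 98.6% had a lower value than Cdkn2a with FOXA1 in liver mets and 62.7% in tumor, but 37.1% and 14.1% did with HNF4G. The medians over these genes were 0.906, 0.927, 0.928 and 0.941. The locus was therefore among the most densely looped with FOXA1 in liver mets and sparsely looped with HNF4G in tumor.

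The FOXA1 ratio was highest for loops that passed over the Cdkn2a anchor. The neighborhood had 8 anchors on the side of Mtap and Wincr1 and 13 on the side of Cdkn2b and Gm12610. Loops from one side to the other numbered 33 in liver mets and 12 in tumor with FOXA1, and 7 and 2 with HNF4G, of 104 possible pairs. For FOXA1 the ratio was 2.75 (1.38 to 5.85). Loops with both anchors on the side of Gm12610 numbered 48, 29, 21 and 15, a FOXA1 ratio of 1.66 (1.02 to 2.72). On the side of Mtap they numbered 15, 12, 5 and 5, a ratio of 1.25 (0.546 to 2.92), and at the Cdkn2a anchor 13, 7, 6 and 2, a ratio of 1.86 (0.689 to 5.5). The 4 intervals overlapped, and the difference between the classes was not tested.

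**Figure D4:**
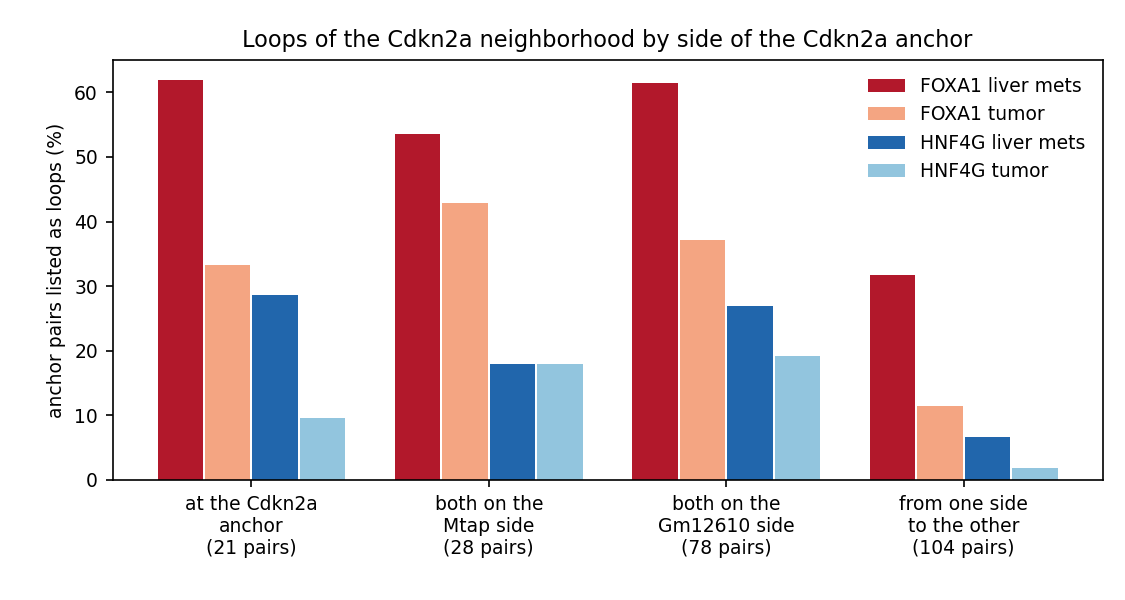
Share of the possible anchor pairs of the Cdkn2a neighborhood that were listed as loops (y axis, percent), by where the anchors lie relative to the Cdkn2a anchor (x axis, with the number of possible pairs), in the 4 lists. Pairs from one side to the other were listed at 31.7% in liver mets and 11.5% in tumor with FOXA1, and at 6.73% and 1.92% with HNF4G.

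Of the 137 distinct loops of the Cdkn2a neighborhood, 50 (36.5%) were in FOXA1 liver mets alone, where 24.4% of all loops of the series were. Another 22 (16.1%) were in both FOXA1 lists and neither HNF4G list, against 5.88% of all loops, and 0 were in both HNF4G lists and neither FOXA1 list, against 1.81%. The neighborhood loops spanned at most 462.4 kb and those of the series up to 2000 kb, so these shares were not matched on span. The loops with a value of 2 or more numbered 12 in liver mets and 5 in tumor with FOXA1, and 2 and 1 with HNF4G. These were 11, 8.33, 5.13 and 4.17% of the loops there, near the 9.33, 7.84, 7.21 and 7.32% of the whole lists. The highest value was 5.55 in FOXA1 liver mets, for the loop from Wincr1 at chr4:89052993-89060118 to the start of Gm12608 at chr4:89444571-89447456, spanning 389.5 kb. It had 1.95 in HNF4G liver mets and was in neither tumor list. A loop from the Gm12607 start to the intergenic anchor chr4:89484981-89489086, spanning 323.9 kb, had 5.15 in FOXA1 liver mets only. In HNF4G liver mets the highest value was 3.67, for a loop of 360.3 kb from an Mtap intron to chr4:89504977-89507085 that no other list held. All 3 of these loops passed over Cdkn2a and Cdkn2b.

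The FOXA1 difference at Cdkn2a did not rest on the shared values. Without loops at these values the ratio was 1.87 (1.3 to 2.73), and it was 1.69 (1.07 to 2.7) in equally long lists of the highest values and 1.55 (1.2 to 1.99) with 500 kb on each side. With only values of 2 or more it was 2.4, but its interval of 0.787 to 8.7 held 1. With 100 kb on each side it was 2.5, from 5 and 2 loops, and its interval of 0.409 to 26.3 held 1. Most of the loops counted in the neighborhood thus had an anchor more than 100 kb from the gene. Beyond the neighborhood at higher coordinates, the next anchor lay 4745.5 kb from the gene, and no list had a loop with its midpoint between 500 and 3000 kb from the Arf start on that side. Whether that stretch lacks bound sites or lacks DNA in these lines was not tested.

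**Figure D5:**
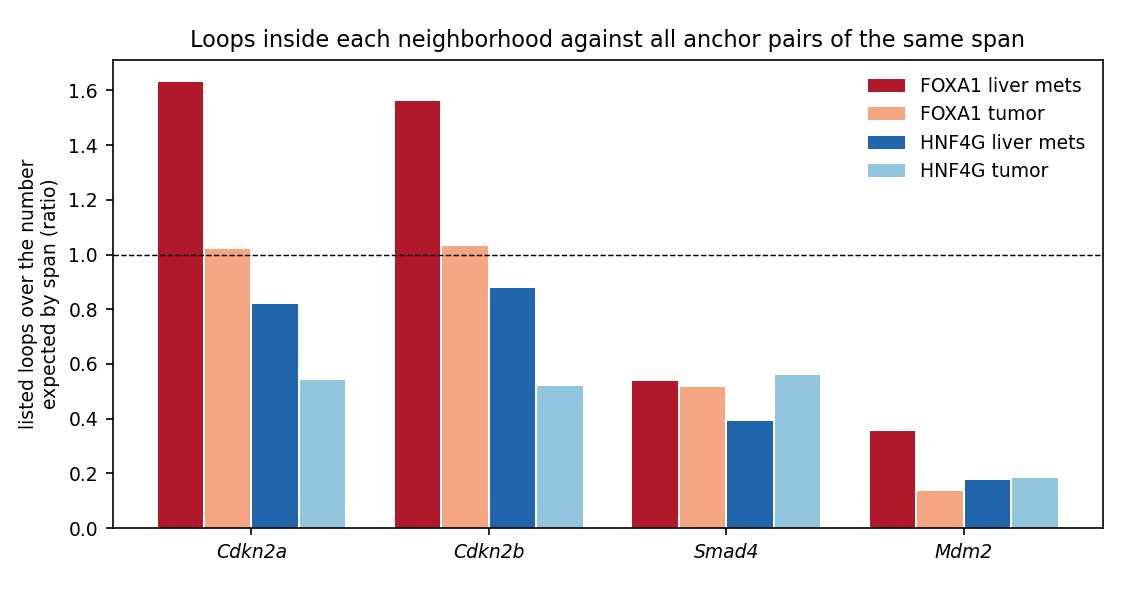
Number of listed loops inside each neighborhood divided by the number expected from the share of all anchor pairs of the same span range that were listed (y axis, ratio, with a dashed line at 1), for each gene (x axis) in the 4 lists. Cdkn2a reaches 1.63 in FOXA1 liver mets and 0.54 in HNF4G tumor, and Smad4 and Mdm2 lie at 0.559 or less in all lists.

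Smad4 and Mdm2 had fewer neighborhood loops than expected by span in both lines, which for Smad4 was within counting error. Smad4 had 9 anchors and 6, 5, 3 and 4 loops, which was 0.539, 0.515, 0.393 and 0.559 of the number expected by span. In all lists the exact Poisson interval of the Smad4 count held the expected number. With FOXA1 in liver mets it was 2.2 to 13.1, against 11.1 expected. A lower value than that of Smad4 was found for 9.2, 8.22, 4.78 and 15.4% of genes. Mdm2 had 14 anchors and 9, 3, 3 and 3 loops, which was 0.355, 0.136, 0.174 and 0.184 of that number. In FOXA1 tumor 0.215% of genes had a lower value than Mdm2, and in the other lists at most 2.54%. The Mdm2 locus was thus near the bottom of all neighborhoods with both factors. Only 1 Mdm2 neighborhood loop, between 2 intergenic anchors at 42.1 kb, was in 3 lists, and the other 15 were in 1 list each. Within the 250 kb neighborhoods no ratio between the lines had an interval that excluded 1: the FOXA1 ratio at Mdm2 was 3 with an interval of 0.749 to 17.2. Counted by midpoint in windows of 500 kb along 3 Mb on each side of Mdm2, the FOXA1 lists had 12 loops in liver mets and 2 in tumor from 0 to 500 kb, a ratio of 6 (1.34 to 55.2), and 22 and 9 from 1500 to 1000 kb on the side of lower coordinates, a ratio of 2.44 (1.08 to 6.03). The intervals of the other windows around Mdm2 with FOXA1 loops held 1. Per listed loop the ratios of 6 and 2.44 became 4.97 and 2.03. Chromosome 10 as a whole had 1.24, which the interval of 1.08 to 6.03 held. Around Smad4 the windows from 1000 to 1500 and 1500 to 2000 kb had 2.23 (1.12 to 4.67) and 1.34 (1.01 to 1.78). Chromosome 18 as a whole had 1.36. No allowance was made for the number of windows.

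Summed over the 4 neighborhoods with shared loops counted once, FOXA1 had 124 loops for liver mets and 68 for tumor, a ratio of 1.82 (1.35 to 2.49), and HNF4G had 45 and 31, a ratio of 1.45 (0.899 to 2.37). Per listed loop the FOXA1 ratio was 1.51 (1.12 to 2.06). Of the difference of 56 FOXA1 loops, Cdkn2a alone had 49. The sum therefore mostly repeats the count at that locus.

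The other genes of these pathways are given by lists and as counts. All 14 genes of the INK4, cyclin D and RB axis had an anchor, led by the cyclin genes Ccnd3 with 45, 33, 35 and 32 promoter loops and Ccnd1 with 38, 32, 20 and 24. In this list 8 genes had more FOXA1 loops in liver mets and 0 had fewer, while with HNF4G 6 had more and 7 fewer. Of all genes 57.5% had more and 30.0% fewer with FOXA1, and 41.5% and 44.1% with HNF4G. Mtap, the neighbor of Cdkn2a, belongs to this list.

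In the TGF-beta and SMAD axis all 15 genes had an anchor. Smad3, a SMAD that TGF-beta receptors activate, had 66, 44, 34 and 39 loops over 4 anchors and the inhibitory Smad7, also on chromosome 18, had 55, 36, 27 and 30 over 3 anchors, against 3, 1, 3 and 0 for Smad4. In this list 10 genes had more FOXA1 loops in liver mets and 4 had fewer, and with HNF4G 8 had more and 6 fewer, beside the same shares of all genes. Among 10 other genes mutated in pancreatic cancer, Rnf43, a ligase that limits WNT receptors, had 40, 39, 38 and 22 loops and the kinase gene Stk11 had 34, 34, 24 and 32, and Map2k4 had no anchor. Of these 10 genes, 7 had more FOXA1 loops in liver mets and 0 had fewer, and with HNF4G 5 had more and 4 fewer. Over all genes with an anchor the median was 7, 6, 5 and 5. The pathway lists were written with results of these data known, so their counts are a description.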

How the data were processed

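Processed loop lists of 8 Hi-ChIP samples in 4 groups were used, with groups from the sample titles. According to the study's methods and the submitters' processing notes, reads were aligned to mm10 with HiC-Pro 3.1.0 and assigned to DpnII fragments without duplicates, and loops were called with hichipper. How replicates were joined and the minimum read support are not given in the sources used here. The deposited value of each loop was read as the −log10 of an adjusted p from its runs of equal values and its maximum of 20, and the score deposited by the authors beside it, a display score, was not used. No column holds a read count, so depth is unknown.

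Loops were matched to GENCODE M21 starts on GRCm38 with pandas 2.3.3. The expected number by span is the sum, over the anchor pairs of a neighborhood, of the share of pairs in the same span range that the list holds. Pairs within chromosomes were pooled over all chromosomes, in ranges such as 100 to 200 and 200 to 500 kb. Counts have exact Poisson, ratios Clopper-Pearson and shares Wilson intervals (scipy 1.17.1, statsmodels 0.14.6). The matching of anchors to starts was tested on simulated anchors and starts, and the ratio interval on simulated independent counts. Neighborhood ratios over all genes used genes with at least 20 loops in the 2 lists. Each gene was described in all 4 lists, and the loops named were those in all lists and the highest in each list, with exceptions stated. The 2 genes with the most promoter loops are named per pathway list, and the 3 genes most alike per gene. The genes and lists were chosen with earlier results of these data known. Another gene of the set and the results that need it are not reported here. Alternatives were other minimum values, start distances, neighborhood widths, spans, transcript types and list sizes.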

Additional observations from a re-analysis of the deposited data

Results flagged for a closer look

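At Smad4 the FOXA1 list had more neighborhood loops in liver mets than in tumor while the HNF4G list had fewer. The FOXA1 ratio divided by the HNF4G ratio was 1.6, from 6 and 5 FOXA1 loops and 3 and 4 HNF4G loops in liver mets and tumor. Each factor had 1 list per line, so this difference between the factors was not tested.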

How the results depend on the processing

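No paired analysis was possible because each group had 1 list for both replicates, and no replicate could be left out for the same reason. Of the 42 alternative values for the summed counts and the share, 38 stayed within the 95% interval of the value reported. The others were the share of promoter loops in all 4 lists at a value of 2 or more, which was 0 of 7, the FOXA1 neighborhood ratio with 100 kb on each side, which was 3 from 9 and 3 loops, and the HNF4G neighborhood ratio with 100 kb on each side and at a value of 2 or more, which was 3 from 3 and 1 loops in both cases. The cause was not tested, and these rest on few loops. No promoter loop had a value of 4 or more, so that minimum gave no value. The ratio of FOXA1 promoter loops in liver mets to tumor lay between 1 and 2, and that of FOXA1 to HNF4G in liver mets between 0.956, per listed loop, and 3. Start distances of 0 and 5 kb and protein-coding transcripts alone left all promoter counts as they were. The alternatives for the Cdkn2a neighborhood were chosen after seeing the data.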
